A study of Mus musculus with 7 samples.

Results

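The inducible leukocyte adhesion molecules studied here are 6 genes, Icam1, Vcam1, Sele, Selp, Selplg and Cd44, whose products let circulating leukocytes roll on, stick to and cross the vessel wall. Each was measured by every probe set that the platform's annotation gives exactly 1 symbol, that of one of these genes. All 6 genes were found, on 10 of the array's 22626 probe sets. Vcam1 had 3 of them, Selp and Cd44 had 2 each, and Icam1, Sele and Selplg had 1 each. Heart RNA was hybridized to Affymetrix arrays, with 3 hearts of KLF15-null mice and 4 of wild-type (WT) mice. KLF15 is a Krüppel-like transcription factor that is abundant in heart muscle. Mice of both genotypes were labelled as male C57/BL6, 3 to 4 months old, and had been fasted for 18 h. The sources used here do not give how the null allele was made, whether it acts in all cells or whether RNA was pooled. The comparison asked how cardiac RNA of fasted mice differs without KLF15, and fed mice were not analysed here.

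Leukocytes leave the blood in steps. Selectins on activated endothelium (E-selectin from Sele, P-selectin from Selp) bind sugar-bearing ligands such as PSGL-1, the product of Selplg, and slow the cell to a roll. ICAM-1 and VCAM-1, immunoglobulin-type receptors of the endothelial surface, then bind leukocyte integrins and hold the cell firmly. Cytokines such as TNF and IL-1 switch on Icam1, Vcam1 and Sele in endothelium through the transcription factor NF-kappaB, while P-selectin is also stored in endothelial granules and in platelets. CD44 is a hyaluronan receptor of leukocytes, fibroblasts and many other cells. In whole heart RNA, a change in the number of cells of a type and a change in RNA per cell cannot be told apart.

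The deposited values are log2 signals, with array medians between 6.22 and 6.33. Klf15 had log2 signals of 6.52, 6.23 and 6.23 on the KLF15-null arrays, against 8.68, 8.98, 8.73 and 9.08 on the WT arrays. Its difference was -2.54 (KLF15-null minus WT on the log2 scale, as for all differences given here; adjusted p = 1.26e-06, limma). Klf15 RNA was thus lower in every KLF15-null heart, though the sources used here do not say which part of the gene the allele lacks or where the probes lie. They also do not say whether the hearts of a group were separate animals, so p-values measure the spread between these samples, which may be technical, and they name no batch. The labelled sex went against sex-linked genes on all 7 arrays. The brightest probe set of Xist lay between 8.57 and 9.62 on KLF15-null arrays and between 9.82 and 9.94 on WT arrays, while the 7 probe sets of 4 Y-linked genes had mean signals at percentile 27.3 or lower. Since this holds for every array, no result can be given without the arrays concerned. Arrays correlated (Pearson's r over probe sets, which are not replicates) at 0.986 to 0.993 among KLF15-null arrays, 0.995 to 0.997 among WT arrays and 0.942 to 0.964 between the genotypes.

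Icam1 and Cd44 rose in KLF15-null hearts, by 2.02 and 1.67 on the log2 scale on their brightest probe sets, which is 4.05-fold and 3.17-fold. Selplg was called higher by 0.41 on its only probe set, but its groups overlapped and the call was lost without some single arrays. Selp was called higher by 1.28 on its brighter probe set, with a dim WT level that leaves the size uncertain. Vcam1 differed in opposite directions on its probe sets, at 0.96 and 0.38 on 2 of them and at -0.93 on the other. Sele was dim on every array and was not tested. Probe sets were tested where the mean of the 7 arrays reached the 40th percentile (log2 5.74), which kept 7 of the 10 probe sets and 13576 in all. A probe set is called where limma's p, adjusted by Benjamini-Hochberg over those 13576, is under 0.05. Of the 7 tested, 6 were called higher, against 26.8% of all tested probe sets, and 1 was called lower, against 23.8%. The 3 KLF15-null values did not overlap the 4 WT values on 6 of the 7, where 53.0% of all tested probe sets did not overlap. Since 50.6% of all tested probe sets were called, a call by itself does not set these genes apart. Selp passed the filter only through its KLF15-null level, so its call could hardly go another way, and without it 5 of 6 probe sets were called higher. With median-centred arrays, the split over all tested probe sets was 32.9% higher and 19.1% lower, and the same count of 6 and 1 was found among the adhesion molecules.

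**Figure D1:**
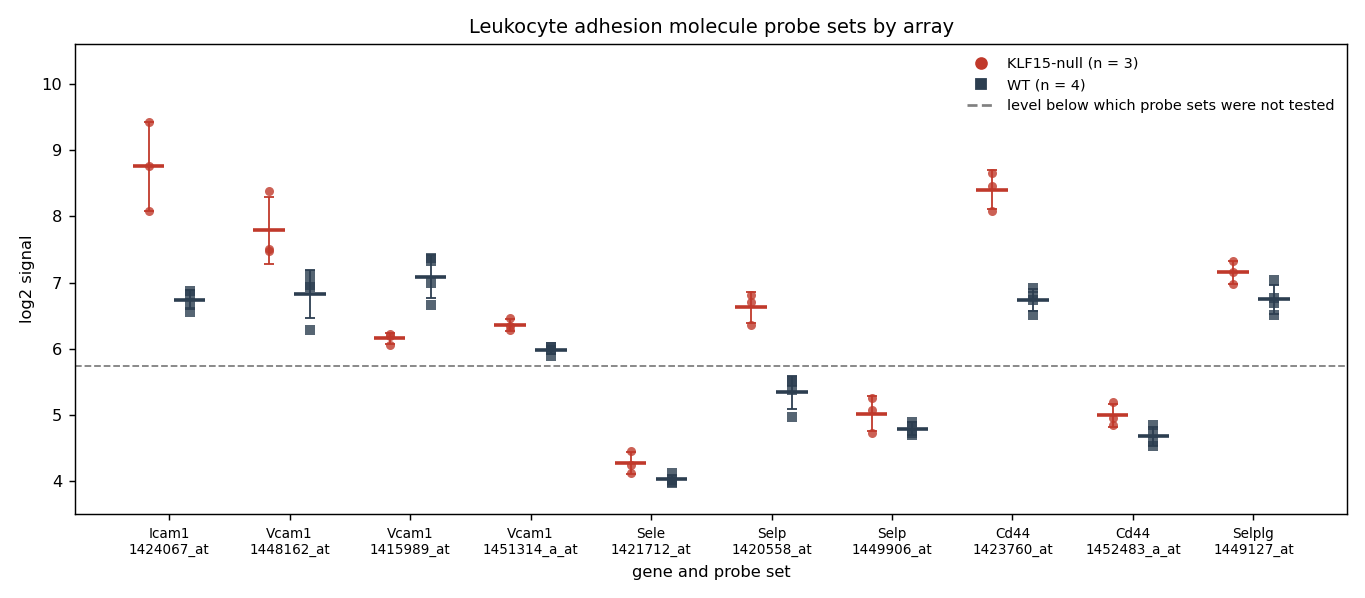
Log2 signal of the 10 probe sets on each array, with KLF15-null arrays (circles, n = 3) left of WT arrays (squares, n = 4). Horizontal bars are group means, whiskers are 1 SD, and the dashed line is the level (log2 5.74) under which probe sets were not tested. Icam1 and Cd44 1423760_at show the widest gaps between the groups, and the first 2 Vcam1 probe sets stand in opposite order.

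Icam1 codes for the endothelial ligand of the leukocyte β2 integrins. Its probe set 1424067_at read 8.76, 8.08 and 9.42 on the KLF15-null arrays, against 6.55, 6.87, 6.70 and 6.82 on the WT arrays. Every KLF15-null heart was above every WT heart, by at least 1.21. The means were 8.75 ± 0.67 (SD, n = 3) in KLF15-null hearts and 6.74 ± 0.14 (SD, n = 4) in WT hearts, a difference of 2.02 (SE 0.26, 95% interval 1.44 to 2.59, adjusted p = 0.000154, limma). The KLF15-null hearts were spread over 1.34 and the WT hearts over 0.32, so the size of the rise varied between null hearts while the WT level hardly did. Without KLF15-null replicate 3, the highest heart, the difference was 1.68, and without replicate 2, the lowest, it was 2.35. The probe set stood at percentile 71.5 of brightness, the mean over the 7 arrays. Of all tested probe sets 99.2% had a smaller signed difference.

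Promoters of Icam1, Selp and Cd44 are shown because these members had the highest differences among those with an entry in the RefSeq promoter table (GRCm38.p6, 250 bases before to 50 after the gene start), which held 4 of the 6 genes. Sele was the other one. Capitals mark matches on either strand to GGNNNTTCC, a short form of the NF-kappaB motif that was found in 18.5% of all 32851 promoter windows of that table.
Icam1 promoter, chr9:21015690-21015989, + strand: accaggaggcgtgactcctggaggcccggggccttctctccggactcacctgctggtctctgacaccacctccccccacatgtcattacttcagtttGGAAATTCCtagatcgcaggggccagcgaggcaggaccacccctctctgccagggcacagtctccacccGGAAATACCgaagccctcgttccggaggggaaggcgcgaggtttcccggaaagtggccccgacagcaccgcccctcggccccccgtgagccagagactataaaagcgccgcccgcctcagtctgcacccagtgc
Selp promoter, chr1:164115014-164115313, + strand: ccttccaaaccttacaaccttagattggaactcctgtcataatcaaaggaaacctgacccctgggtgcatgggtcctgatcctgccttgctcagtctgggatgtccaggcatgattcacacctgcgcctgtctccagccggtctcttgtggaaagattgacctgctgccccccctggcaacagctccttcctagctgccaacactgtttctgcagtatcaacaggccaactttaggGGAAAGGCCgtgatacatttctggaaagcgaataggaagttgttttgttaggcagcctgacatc
Cd44 promoter, chr2:102901616-102901915, - strand: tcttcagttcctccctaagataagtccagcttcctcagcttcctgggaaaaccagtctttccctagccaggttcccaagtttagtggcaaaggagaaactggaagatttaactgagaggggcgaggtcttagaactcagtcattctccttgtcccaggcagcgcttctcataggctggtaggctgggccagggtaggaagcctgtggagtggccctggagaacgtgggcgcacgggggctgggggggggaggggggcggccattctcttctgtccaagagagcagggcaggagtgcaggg
The Icam1 window held GGAAATTCC, which begins 153 bases before the gene start and fits the motif on both strands. Another, GGAAATACC, begins 84 bases before it. The Selp window held 1 match, GGAAAGGCC, beginning 14 bases before the start, and the Sele window held GGATATTCC beginning 145 bases before it. No match was found in the Cd44 window. The short sequence CACCC, the core of the box that Krüppel-like factors are known to bind, was found in 57.5% of all windows. It occurred 3 times in the Icam1 window and 1 time in the Selp window, and was not found in the Sele or Cd44 window. These are matches of letters in 1 window per gene, with no binding measured.

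Vcam1 codes for the endothelial ligand of the α4β1 integrin of monocytes and lymphocytes, and mouse Vcam1 is known to give both a long transmembrane form and a shorter, lipid-anchored form by alternative processing. Its brightest probe set, 1448162_at (percentile 65.9 of brightness), read 7.51, 7.47 and 8.38 in KLF15-null hearts, against 6.29, 6.97, 6.94 and 7.11 in WT hearts. The groups did not overlap, but 1 null heart stood well above the others and the gap between the groups was 0.37. The difference was 0.96 (SE 0.25, 95% interval 0.40 to 1.52, adjusted p = 0.00992). It was 0.67 without KLF15-null replicate 3 and still called (adjusted p = 0.0362, against 0.000214 to 0.0362 over all alternatives).

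Probe set 1415989_at of Vcam1 (percentile 56.7 of brightness) went the other way. It read 6.06, 6.22 and 6.19 in KLF15-null hearts, against 6.99, 7.37, 6.67 and 7.32 in WT hearts. All 3 null hearts lay close together below every WT heart. The difference was -0.93 (SE 0.16, 95% interval -1.29 to -0.57, adjusted p = 0.000960). The remaining one, 1451314_a_at (percentile 47.3 of brightness), read 6.34, 6.28 and 6.46 in KLF15-null hearts, against 6.03, 5.89, 5.98 and 6.03 in WT hearts, a difference of 0.38 (SE 0.08, adjusted p = 0.00303). Its groups did not overlap either, with both close to the filter level.

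The disagreement within Vcam1 was larger than the spread between hearts. The signal of 1448162_at minus that of 1415989_at lay between 1.25 and 2.19 in KLF15-null hearts and between -0.70 and 0.27 in WT hearts, a shift of 1.89. For the same probe set minus 1451314_a_at the shift was 0.58. The exact two-sided permutation p was 0.0286 for each, the smallest that 35 splits of 7 arrays allow. It was also 0.0286 after adjustment over the 4 probe set pairs compared in Vcam1, Selp and Cd44. For 1448162_at minus 1415989_at this p adds nothing, since both probe sets already separated the groups, in opposite directions. Each direction of Vcam1 was kept and called under every alternative in which the probe set was tested. The sources used here do not say which Vcam1 transcripts each probe set reads, so no single direction can be given for the gene. Such disagreement was common on these arrays. Of the 2748 genes with 2 or more tested probe sets, 576 (21.0%) had 1 called higher and another called lower, and among the 586 genes with exactly 3 it was 28.0%. The span of 1.89 between the Vcam1 differences was wider than that of 81.9% of those 586 genes, whose median span was 1.06.

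**Figure D2:**
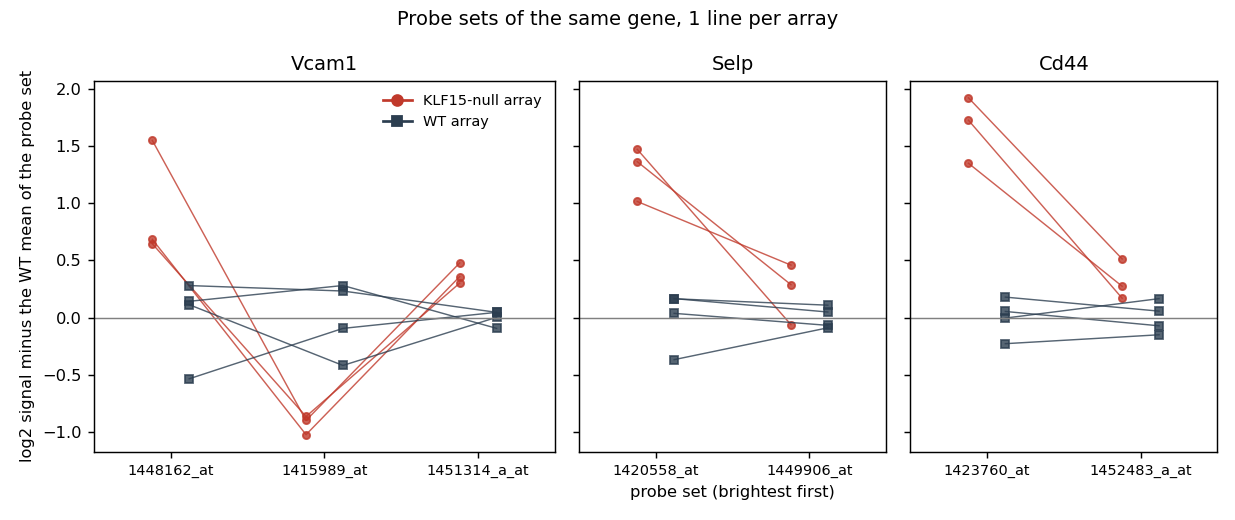
Probe sets of Vcam1, Selp and Cd44, with the brightest at the left of each panel. Each line is 1 array (KLF15-null circles, WT squares), plotted as its log2 signal minus the WT mean of that probe set. KLF15-null arrays lie above WT on 1448162_at and below it on 1415989_at of Vcam1, and the dimmer probe sets of Selp and Cd44 show smaller differences than the brighter ones.

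P-selectin and E-selectin start the rolling of leukocytes. The brighter Selp probe set, 1420558_at (percentile 42.7 of brightness), read 6.81, 6.36 and 6.71 in KLF15-null hearts, against 5.51, 5.38, 4.97 and 5.51 in WT hearts. The null hearts were all higher, with a gap of 0.85 to the nearest WT heart. The means were 6.63 ± 0.24 (SD, n = 3) in KLF15-null and 5.34 ± 0.25 (SD, n = 4) in WT hearts, a difference of 1.28 (SE 0.15, 95% interval 0.94 to 1.63, adjusted p = 0.000102). The WT mean lay below the filter level of 5.74, so the size of the difference is uncertain. Without KLF15-null replicate 1 its mean fell under the filter and it was not tested. The dimmer probe set, 1449906_at (percentile 23.7 of brightness), read 4.73, 5.25 and 5.08 in KLF15-null hearts, against 4.90, 4.72, 4.70 and 4.84 in WT hearts, and the groups overlapped. It was too dim for the limma test, and its difference of 0.23 had an exact permutation p of 0.171.

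Sele, on 1421712_at at percentile 8.23 of brightness, read 4.46, 4.12 and 4.24 in KLF15-null hearts, against 4.02, 3.99, 4.12 and 3.98 in WT hearts. These values are among the dimmest of the array, and the lowest null heart equalled the highest WT heart. The difference was 0.25, with an exact permutation p of 0.0571 (0.0857 adjusted over the 3 dim probe sets tested in this way). With every probe set of the table entered in limma, Sele was called higher (adjusted p = 0.0355), at a level where a change in RNA and a change in background cannot be told apart.

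Selplg codes for PSGL-1, the leukocyte ligand of P-selectin. Its probe set 1449127_at (percentile 60.7 of brightness) read 7.16, 7.32 and 6.98 in KLF15-null hearts, against 6.69, 6.76, 6.50 and 7.04 in WT hearts. The groups overlapped, since WT replicate 4 stood above KLF15-null replicate 3. The difference of 0.41 (SE 0.13, 95% interval 0.11 to 0.71, adjusted p = 0.0288) was called, but adjusted p lay between 0.0595 and 0.0837 without WT replicate 1, 2 or 3 or KLF15-null replicate 1 or 2. Of the members called, Selplg was the one whose call depended on single arrays through its p.

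Cd44 codes for the hyaluronan receptor. Its probe set 1423760_at (percentile 69.4 of brightness) read 8.66, 8.46 and 8.09 in KLF15-null hearts, against 6.51, 6.91, 6.73 and 6.79 in WT hearts. The lowest null heart was 1.17 above the highest WT heart. The means were 8.40 ± 0.29 (SD, n = 3) in KLF15-null and 6.74 ± 0.17 (SD, n = 4) in WT hearts, a difference of 1.67 (SE 0.15, adjusted p = 1.97e-05), the smallest adjusted p of the 10 probe sets. The other, 1452483_a_at (percentile 22.0 of brightness), read 5.19, 4.85 and 4.95 in KLF15-null hearts, against 4.53, 4.73, 4.84 and 4.61 in WT hearts. Here the groups were separated by only 0.00336. The difference of 0.32 was not tested by limma after the filter and had an exact permutation p of 0.0571 (0.0857 adjusted over the 3 dim probe sets). Without the filter it was called higher by limma (adjusted p = 0.0346).

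**Figure D3:**
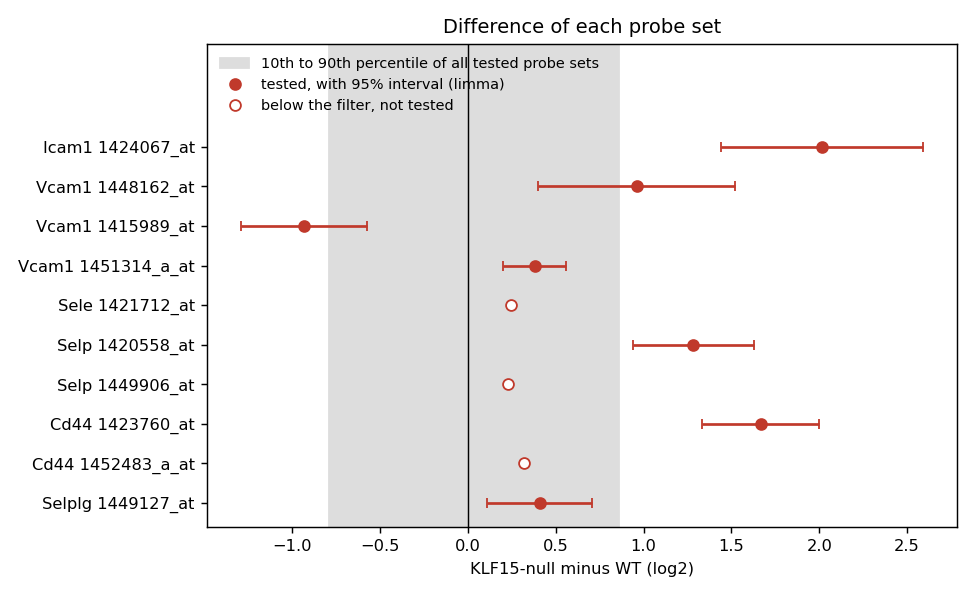
Difference of each probe set, KLF15-null minus WT on the log2 scale. Filled points are tested probe sets with limma's 95% interval, open points were below the filter, and the grey band spans the 10th to 90th percentile of all tested probe sets (-0.79 to 0.86). Icam1, Cd44 1423760_at and Selp 1420558_at have intervals above the band, and Vcam1 1415989_at is the only point below 0.

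The order of the null hearts was shared by some members and not by others. Icam1, Vcam1 1448162_at and Vcam1 1451314_a_at were all, among the null hearts, highest in replicate 3 and lowest in replicate 2. KLF15-null replicate 3 had the lowest Cd44 1423760_at and Selplg of the 3 null hearts. KLF15-null replicate 2 had the highest Selplg. Likeness was measured as the root mean square difference over the 7 arrays after each probe set was centred on its own mean. The values were not scaled, so this measure also takes in the size of the difference between the groups. Among members of different genes the nearest were Vcam1 1451314_a_at and Selplg (0.20), then Selp 1420558_at and Cd44 1423760_at (0.35). The first pair had differences of like size (0.38 and 0.41), although its null hearts ran in opposite order. Icam1 was nearest to Selp, at 0.49, and Vcam1 1415989_at was 1.51 from Icam1. Among 8282 other genes, Icam1 lay nearest to Nppa (0.21), Pdgfa (0.26) and Ccl7 (0.26), which had differences of 1.71, 2.05 and 2.19. Nppa codes for atrial natriuretic peptide, Pdgfa for a platelet-derived growth factor chain and Ccl7 for a monocyte chemokine. Cd44 lay nearest to Nop56 (0.08), a nucleolar protein gene, then Azin1 (0.12) and Cyrib (0.13). The nearest genes to Selp were Fkbp5 (0.17), Nppb (0.18) and Polr2a (0.18), those to Vcam1 1448162_at were Dnttip2, Tra2a and Chd8 (0.24 each), and those to Selplg were Lyl1 (0.08), Pdgfc (0.09) and Prkcb (0.09). With only 2 groups of hearts, many genes lie close by this measure.

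Around these members, 63 of 87 genes in 9 lists of the adhesion pathway were tested, each on its brightest probe set, and 24 were higher and 9 lower. That is 38.1% and 14.3%, beside 27.4% and 19.6% of all 8404 tested genes. Fermt3 and Vcan among the higher genes, and St3gal4 among the lower, passed the filter only through the group where they were high. Their calls could hardly go another way, and these counts include them. The counts of each pathway list below stand against the same 27.4% and 19.6%. The median difference was 0.13, against 0.02 over all tested genes, of which 46.9% were called in either direction and 49.8% had groups that did not overlap. Of the 24 higher genes 5 had another tested probe set that was called lower (Adam10, Adam17, Ank3, Il4ra and Jun; Il4ra was named after its values were seen), and of the 9 lower genes 0 had one called higher.

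Integrin partners of these receptors moved apart. Itgb2, the β2 chain that pairs into the ICAM-1 receptors of leukocytes, rose by 1.14 (adjusted p = 0.00453), and Fermt3, the kindlin that activates leukocyte integrins, was called higher at 2.58 on a probe set of the kind that may cross-hybridize. That probe set passed the filter only through its KLF15-null level (8.04, against 5.46 in WT hearts), so the size is uncertain, and the dimmer ones were untested at 0.09 and 0.19. Itgb1, the β1 chain that pairs with α4 as the VCAM-1 receptor but is made by nearly all cells, fell by 2.83, with its other tested probe sets at -2.41 and -2.91 and 3 dimmer, untested ones at 0.06 to 0.10. Itgax and Itgb2l differed by 0.13 and 0.06 and were not called. Itgal, Itgam and Itga4, the α chains of the ICAM-1 and VCAM-1 receptors, were below the filter. In this list of 6 tested genes 2 were called higher, Fermt3 included, 1 lower and 3 not called, with a median of 0.18.

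Constitutive adhesion and junction molecules of endothelium had 1 of 12 genes higher, 3 lower and 8 not called (median -0.14). Pecam1 (CD31), which leukocytes also engage when they cross the vessel wall, fell by 2.24, with log2 signals of 6.64, 5.71 and 6.29 in KLF15-null hearts and 8.32, 8.33, 8.59 and 8.59 in WT hearts. The sialomucin gene Cd34 fell by 1.27 and the junctional adhesion molecule gene Jam3 by 0.30, while Podxl, which codes for another sialomucin, rose by 0.59 on its brighter probe set and was not called on the other at 0.07. Esam and Cd99l2 differed by 0.09 and -0.13 on their brightest probe sets and were not called, although 3 dimmer probe sets of Cd99l2 were called lower, 2 of them with a KLF15-null mean under the filter level.

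Of 5 enzymes that build selectin ligands 1 was higher, 2 lower and 2 not called (median -0.07). The galactosyltransferase gene B4galt1 rose by 1.01, and the sialyltransferase gene St3gal6 fell by 0.63. Another, St3gal4, was called lower at -0.97 with a KLF15-null mean just under the filter level. The tyrosylprotein sulfotransferase genes Tpst1 and Tpst2, whose products sulfate PSGL-1, differed by 0.02 and -0.07. Fut7, Fut4 and Gcnt1, which are needed for selectin-binding sugars on leukocytes, were below the filter.

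Among ligands of CD44 and hyaluronan genes, Srgn, which codes for the proteoglycan serglycin, rose by 1.02. Vcan, which codes for the hyaluronan-binding versican, was called higher at 1.64 and 0.74 on its 2 tested probe sets, but both had WT means under the filter level (5.58 and 5.57) and passed only through the KLF15-null hearts, so the sizes are uncertain. Has1 and Hyal2 differed by 0.03 and 0.08. In all 2 of 4 tested genes were called higher, Vcan being one of them, 0 were lower (0 at an unadjusted limma p under 0.05) and the median was 0.55. Linkers to the cytoskeleton had 2 of 6 higher, 1 lower and 3 not called (median 0.14). Actn1 (α-actinin 1) rose by 1.32 on its brightest probe set only, and Ank3 (ankyrin G) rose by 0.61 on its brightest while another was called lower at -0.34. Ezr (ezrin) fell by 0.40. Msn and Rdx (moesin and radixin) were not called on their brightest probe sets at 0.08 and 0.19, with dimmer ones called lower at -2.82 for Msn, where the KLF15-null mean was under the filter level, and called both ways at 1.25 and -0.63 for Rdx.

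All 5 tested sheddases, the surface proteases that can release adhesion molecules from cells, were called higher on their brightest probe sets (median 0.68). Over all tested genes 27.4% were called higher. Of the sheddases 0 were lower on these probe sets (0 at an unadjusted limma p under 0.05). Adam9 rose by 1.13. Mmp14 rose by 0.50 on its brighter probe set and was not called on the other at -0.09. Adam10 rose by 0.90 but fell by 0.30 on another tested probe set, and a dimmer, untested one differed by -1.47. Adam17, which releases TNF and L-selectin, rose by 0.52 but fell by 0.55 on another, and a dimmer, untested one differed by -0.64. The other gene, Adam8, named after its value was seen, rose by 0.68.

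The inducing signals had 4 of 8 tested genes higher, 1 lower and 3 not called (median 0.31). Tnf itself, named after its value was seen, was not called at -0.11 (adjusted p = 0.434). Il1b rose by 0.52 and the TNF receptor gene Tnfrsf1a by 0.62. Tnfrsf1b, the other TNF receptor gene, rose by 0.47 on its brighter probe set and was not called on the other at 0.03. Ifngr2, a chain of the interferon-γ receptor, fell by 2.37 on its brighter probe set and differed by 0.06 on the other. Il1r1 and Ifngr1 were not called at 0.07 and 0.15. Below the filter and not tested, Il6, Il1a, Il4 and Ifng differed by 1.44, 0.15, 0.00 and 0.17, named after their values were seen. Of NF-kappaB genes 3 of 7 were higher, 0 lower (0 at an unadjusted limma p under 0.05) and 4 not called (median 0.26). Nfkbia, the feedback inhibitor that NF-kappaB induces, rose on all 4 of its probe sets, by 0.40 on the brightest and by 0.68 to 1.06 on the others. Relb rose by 0.72. Ikbkb rose by 0.62 on its brightest probe set, was not called on another at 0.20 and differed by -0.85 and -0.09 on 2 that were not tested. Rela and Nfkbib differed by 0.25 and -0.06. Rel, Nfkbie and Tnfaip3 were below the filter, at 0.48, 0.18 and 0.00, and so was Nfkbiz, at 2.91 and -0.17 on its probe sets. The former probe set of Nfkbiz had means of 7.22 in KLF15-null and 4.31 in WT hearts. These genes, named after their values were seen, were not tested, and sizes at such dim levels are uncertain. Among factors known to drive or restrain adhesion genes 4 of 10 were higher, 1 lower and 5 not called (median 0.23). Fos rose by 2.38 and Cebpd by 1.22. Jun rose by 0.79 on its brightest probe set but fell by 1.56 on another, and Sp1 fell by 0.63. Klf2, a factor of quiescent endothelium that restrains Vcam1 and Sele, differed by -0.45 (adjusted p = 0.116). Klf4, named after its values were seen, was not called on its brightest probe set at -0.11, with another called lower at -1.11. Ets1 differed by 0.44 (adjusted p = 0.0558) on its brightest probe set, with another called lower at -0.85.

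**Figure D4:**
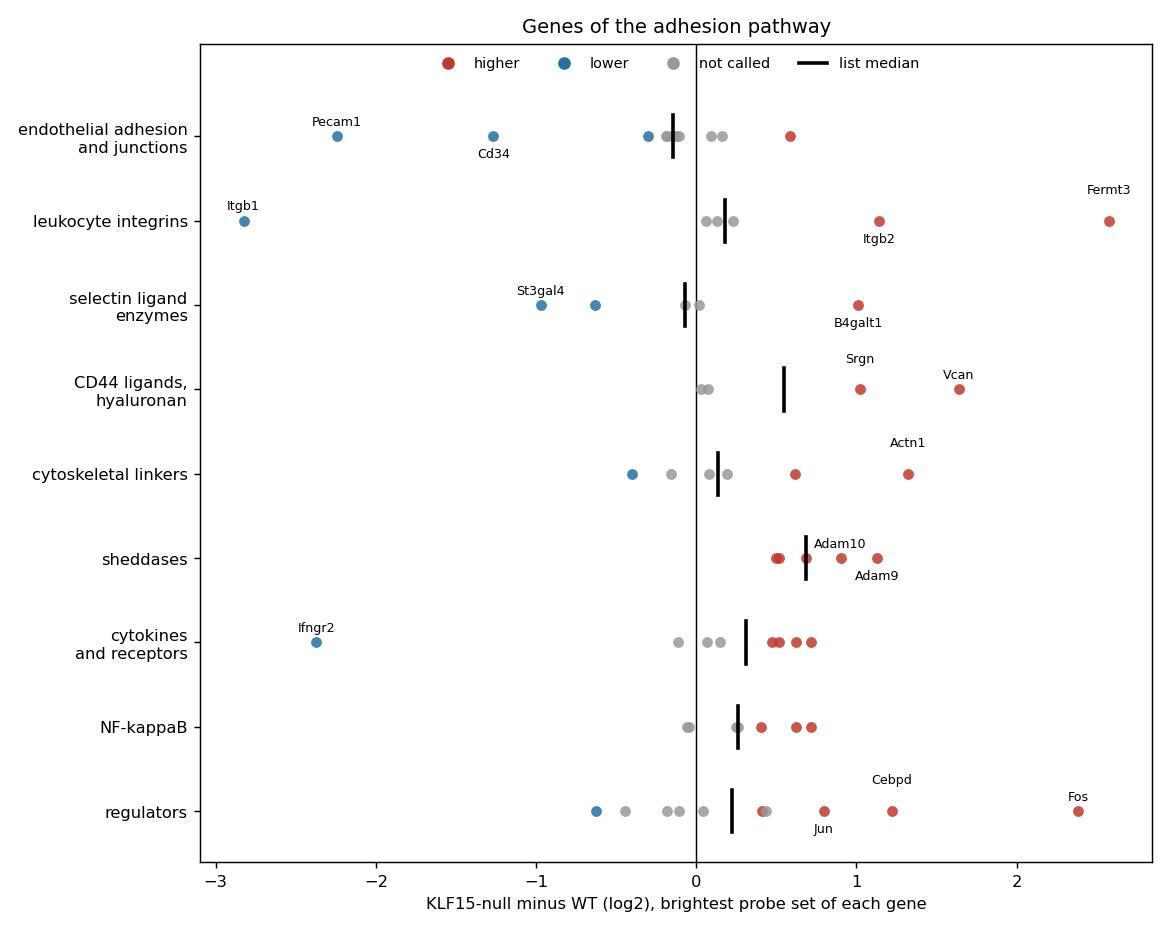
Differences (KLF15-null minus WT, log2) of the tested genes of 9 adhesion pathway lists, each gene on its brightest probe set. Red points were called higher, blue points lower and grey points were not called, and black bars are list medians. All 5 sheddases lie to the right of 0, and the endothelial list holds 3 of the blue points, Pecam1 and Cd34 among them.

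Cell type markers are given beside the members, and for each list the counts stand against 27.4% higher and 19.6% lower among all tested genes. Of 11 tested leukocyte and macrophage markers 7 were higher, 0 lower (0 at an unadjusted limma p under 0.05) and 4 not called, with a median of 1.13. Ptprc (CD45), the defining leukocyte surface gene, rose by 1.72, Cd14 by 1.64 and Tyrobp by 1.66. Laptm5 rose by 3.08 on its brightest probe set, of the kind that may cross-hybridize, and by 1.08 on another, and a further one differed by -0.14. Mrc1 and Adgre1 were not called at 0.31 and 0.08, and Itgam was below the filter. The summed linear signal of the list was 5872 to 8225 in KLF15-null hearts and 2661 to 4224 in WT hearts, which did not overlap. A linear sum leans on the brightest genes, here Csf1r and Lyz2, both named after their values were seen. Lyz2 rose by 1.25. Csf1r rose by 0.90 on its brightest probe set only, and its other tested ones were not called at 0.30 and -0.24. The part of leukocyte RNA in the levels of Cd44, Selplg and the other members was not tested.

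Endothelial markers had 1 of 12 higher, 3 lower and 8 not called (median -0.06), and the summed signal overlapped, at 2828 to 4277 in KLF15-null and 3816 to 4435 in WT hearts. Emcn (endomucin) fell by 1.44 and Tie1 by 0.77, along with Pecam1. Flt1 rose by 0.85 on its brightest probe set but had -0.63, called lower, on another. Eng and Egfl7 were not called on theirs at -0.52 and 0.20, although each had another called higher. Platelet markers had 2 of 5 higher, Pf4 by 1.11 and Ppbp by 1.10, with Itga2b and Gp9 not called at 0.13 and -0.11. Of that list 0 were lower (0 at an unadjusted limma p under 0.05), the median was 0.13, and the summed signal was 1106 to 1425 in KLF15-null and 651 to 795 in WT hearts. Platelets also carry Selp RNA, and their part in its rise was not tested.

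Neutrophil markers had S100a8 and S100a9 higher, by 2.19 and 1.41, among 5 tested. The S100a8 probe set is of the kind that may cross-hybridize. Elane and Csf3r were not called at -0.17 and -0.05, and 0 of this list were lower (0 at an unadjusted limma p under 0.05). The median was -0.05, and the summed signal was 768 to 940 in KLF15-null and 457 to 580 in WT hearts. Of 3 tested T and B cell markers 1 was lower, Cd4 at -0.23, and 0 were higher (0 at an unadjusted limma p under 0.05), with a summed signal of 290 to 327 in KLF15-null and 304 to 349 in WT hearts. Fibroblast markers had Pdgfra higher by 0.53, Dcn and Lum lower by 1.25 and 1.38, and 3 of 6 not called, with a summed signal of 4396 to 5202 in KLF15-null and 5398 to 9813 in WT hearts. The 6 cardiomyocyte markers put the tissue as heart, with list means of 13.4 to 13.6 on the log2 scale. On their brightest probe sets limma called 0 of them, with 2 higher and 0 lower at an unadjusted p under 0.05. A dimmer tested probe set of Myh6 was called lower at -5.34, with means of 3.93 in KLF15-null and 9.27 in WT hearts. That KLF15-null mean lay under the filter level, so the size is uncertain. A dimmer tested one of Tnnt2 was not called at 0.09, and an untested one of Ryr2 differed by -1.29.

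**Figure D5:**
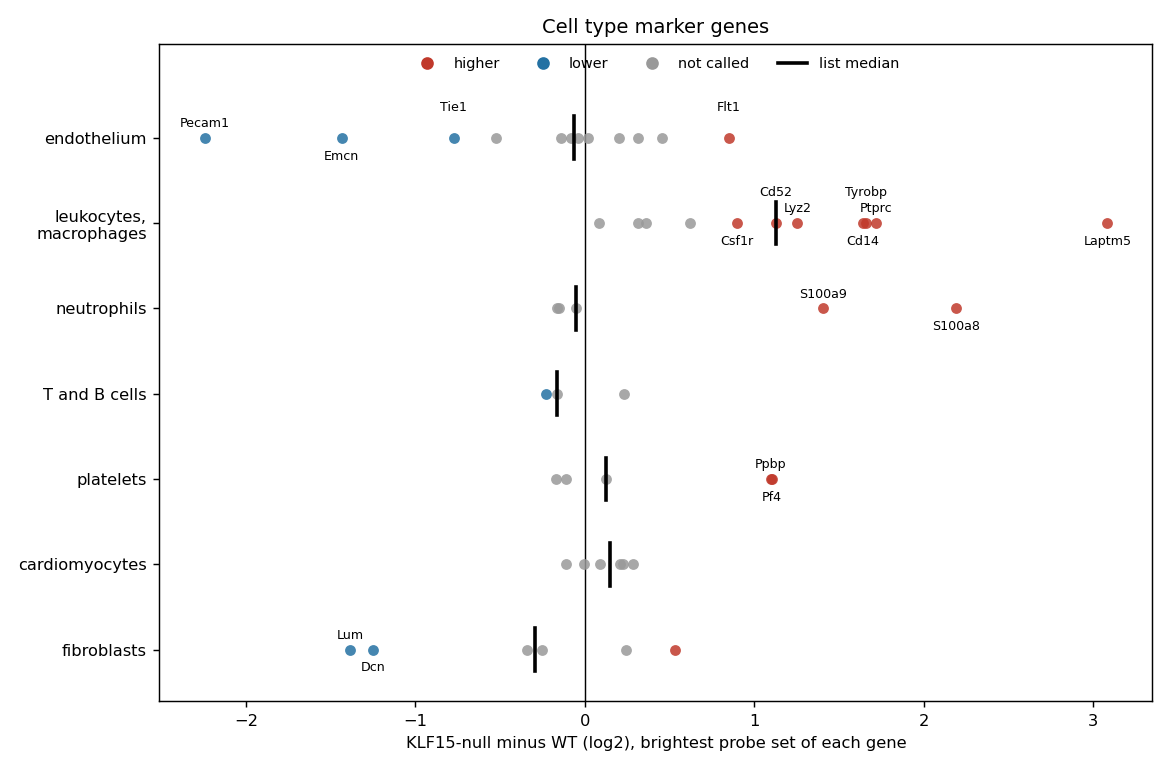
Differences (KLF15-null minus WT, log2) of the tested cell type markers, each gene on its brightest probe set, coloured by call as in the plot of adhesion pathway lists, with list medians as black bars. Leukocyte and macrophage markers lie right of 0, with a median of 1.13, while endothelial markers lie on both sides.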

How the data were processed

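Per the labels' protocols, total RNA of flash-frozen hearts was extracted with Trizol and labelled with biotin by the Affymetrix one-cycle 3' kit. The authors deposited log2 signals, as judged from their range (3.20 to 14.28). The submitters' processing notes name GCOS, and the sources used here state neither summarization nor scaling. The table holds no detection calls. Values were used as deposited, since array medians differed by less than 0.15. Platform annotation gave 20380 of 22626 probe sets 1 symbol, 691 several and 1555 none, and only those with 1 were named. Limma 3.58.1 in R 4.3.3 compared 3 KLF15-null with 4 WT arrays, with no covariate, an intensity trend and a filter at the 40th percentile of the 7-array means, two-sided, and was checked on simulated data. Every adjusted p without another name is from this limma fit. Listed genes were named by smallest p (up to 4 called) and brightness (up to 2 not called) per list, and nearest genes by rank (3 per member called on its brightest probe set, clone names left out). The members and lists were chosen with earlier results of these data known. Nothing in the labels says how the samples were bred, and the number of arrays limits the precision. Scan dates and scanner files were not used here. The alternatives were other filters, 3 scalings, no trend, array weights, a replicate block, gene-specific probe sets and each array left out.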

Additional observations from a re-analysis of the deposited data

Results flagged for a closer look

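In 5 of 87 WT groups checked, 1 array was flagged apart from the other 3 by Dixon's test. Chance gives about 1 in 20 where values are not tied. Of the 10 adhesion molecule probe sets 0 were among those flagged. The share of the group's range taken by the gap was 0.917 for Itgax in WT replicate 3 (6.08, against 6.35 to 6.38). It was 0.922 for Hyal2 in WT replicate 1 (7.19, against 7.20 in the others). For Has1 in WT replicate 2 it was 1 (6.57, against 6.67 in the others). For Nfkbib in WT replicate 1 it was also 1 (7.90, against 7.87 in the others). In both genes the other WT values were identical, so the share is 1 however small the gap. For Tyrobp, a leukocyte marker, in WT replicate 4 it was 0.837 (7.96, against 7.32 to 7.42).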

How the results depend on the processing

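Icam1, Cd44 1423760_at, Selp 1420558_at and all 3 Vcam1 probe sets kept direction and call under every alternative in which they were tested. Icam1 ranged over 1.68 to 2.51, Cd44 over 1.43 to 1.82, Selp over 1.16 to 1.42 and Vcam1 1448162_at over 0.67 to 1.43, the highest with array weights. Selplg was not called without WT replicate 1, 2 or 3 or KLF15-null replicate 1 or 2 (0.32 to 0.41). The count called higher was 6, with 4 to 6 when single arrays were left out and 4 to 8 otherwise. Selp was not tested without KLF15-null replicate 1, nor, with 1415989_at and 1451314_a_at of Vcam1, at the 60th percentile, where 0 adhesion probe sets were called lower, against 1. Pathway genes called higher ranged over 16 to 30 and lower over 7 to 12. Same-numbered arrays were not paired by the data (correlations of deviations -0.11, 0.00 and 0.19, with 1 of 3 null arrays closest to its own number). With a replicate block, to which WT replicate 4 adds nothing, 6 were higher and 1 lower, with Icam1 at 2.05, and pathway genes were 24 higher and 8 lower. Signal near background limits Sele and the dimmer Selp and Cd44 probe sets.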
